A study of Mus musculus with 21 samples.

Results

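The sites bound by Foxa2 and by Hnf4a in hepatocyte-like (iHep) cells made with this pair of factors were set against each other, peak by peak. One library of each antibody was mapped by chromatin immunoprecipitation and sequencing (ChIP-seq), and the deposited lists held 10330 Foxa2 peaks and 2485 Hnf4a peaks. A Foxa2 peak and an Hnf4a peak were called joint where they shared at least 1 bp, near where their centres lay within 2 kb without overlap, and apart otherwise. This gave 511 joint pairs, in which each peak had exactly 1 partner. The 13 lists of the series hold 53537 peaks, of which only the Foxa2 and Hnf4a peaks of these iHep cells were classed.

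Foxa2 is a forkhead protein and Hnf4a is a nuclear receptor that binds DNA as a homodimer. Both are part of the network of liver transcription factors. Foxa proteins are known as pioneer factors, able to bind their sites in closed chromatin, and in liver they are often found at the same enhancers as Hnf4a.

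The cells were mouse embryonic fibroblasts of the C57BL/6 strain, taken from embryos at 13.5 days post coitum and infected with retroviruses for Foxa2 and Hnf4alpha. They were studied as established iHep cells and as fibroblasts 48 hours after infection, with 1 Foxa2 and 1 Hnf4a library at each stage. Cells that received Foxa1 or Foxa3 in place of Foxa2, also with Hnf4alpha, are called the Foxa1 line and the Foxa3 line here. All groups thus carry the Hnf4alpha virus, so Hnf4a in these cells includes the introduced protein, and the lists hold no cells without it. The title codes of the iHep Foxa2 and Hnf4a libraries differ (R215 and R242), each code has its own input sample, and the peak names in both lists share a prefix. What the codes and the prefix stand for is not given. With 1 library per group there is no replicate spread and no p-value, and intervals are 95% Wilson intervals that cover counting error only. These understate the true error, because peaks close to each other share chromatin and library.

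The 48-hour Hnf4a lists hold 3 dense blocks of peaks, on chromosomes 2, 9 and 10. The iHep Hnf4a list had 11 peaks within 10 kb of them, among them the widest of the list at 29305 bp, and the iHep Foxa2 list had 0. None of the 511 joint pairs lay there. The depth of the libraries is unknown. Scores are those the authors deposited, whose computation is not given, and they are used only to rank peaks within a list.

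Hnf4a sites were joined by Foxa2 far more often than Foxa2 sites were joined by Hnf4a, as the unequal list lengths require. The joint peaks made up 4.95% of the Foxa2 list (interval 4.55% to 5.38%) and 20.6% of the Hnf4a list (19.0% to 22.2%). The near class was small, with 94 Foxa2 peaks (0.910%) and 72 Hnf4a peaks (2.90%). The remaining 9725 Foxa2 peaks and 1902 Hnf4a peaks were apart. When the Foxa2 list was cut to its 2485 highest scoring peaks, 205 pairs remained, or 8.25% of either list.

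The centres of both factors mostly lay either close together or far from each other. Of the Hnf4a peaks 199 had their nearest Foxa2 centre within 50 bp and 151 more within 100 bp. Beyond that the numbers fell to 115 at 100 to 200 bp, 49 at 200 to 500 bp, 26 at 500 bp to 1 kb and 43 at 1 to 2 kb. For 1658 Hnf4a peaks (66.7%) no Foxa2 centre lay within 10 kb, and for 9357 Foxa2 peaks (90.6%) no Hnf4a centre did. The median distance to the nearest centre of the other factor was 251062 bp for all Foxa2 peaks and 35518 bp for all Hnf4a peaks.

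The joint class depended little on how much overlap was asked for, while the near class depended on its limit of 2 kb. With 1 kb 1.17% of Hnf4a peaks were near, and with 5 kb 7.16%. The 3 smallest overlaps of joint pairs were 2, 8 and 9 bp, and the 3 smallest gaps of near pairs were 3, 10 and 11 bp. The farthest near centres lay 1965.5 bp apart, and the closest apart centres 2010.5 bp. Only 16 of the 511 joint pairs (3.13%) overlapped over less than 50% of the shorter peak.

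Joint peaks scored higher than apart peaks in both lists, and near peaks scored lowest. In the Foxa2 list the median score was 27.4 for joint peaks (middle 50% from 15.5 to 49.5), 16.8 for near peaks (13.01 to 24.5) and 20.2 for apart peaks (13.9 to 33.5). Of the joint Foxa2 peaks 62.8% (58.5% to 66.9%) scored above the median apart peak, and of the near ones 36.2% (27.2% to 46.2%). In the Hnf4a list the medians were 14.7 for joint peaks (11.4 to 21.4), 11.9 for near peaks (9.01 to 15.2) and 12.4 for apart peaks (9.74 to 17.4). There 67.3% of joint peaks (63.1% to 71.2%) scored above the median apart peak, and 44.4% of near ones (33.5% to 55.9%).

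**Figure D1:**
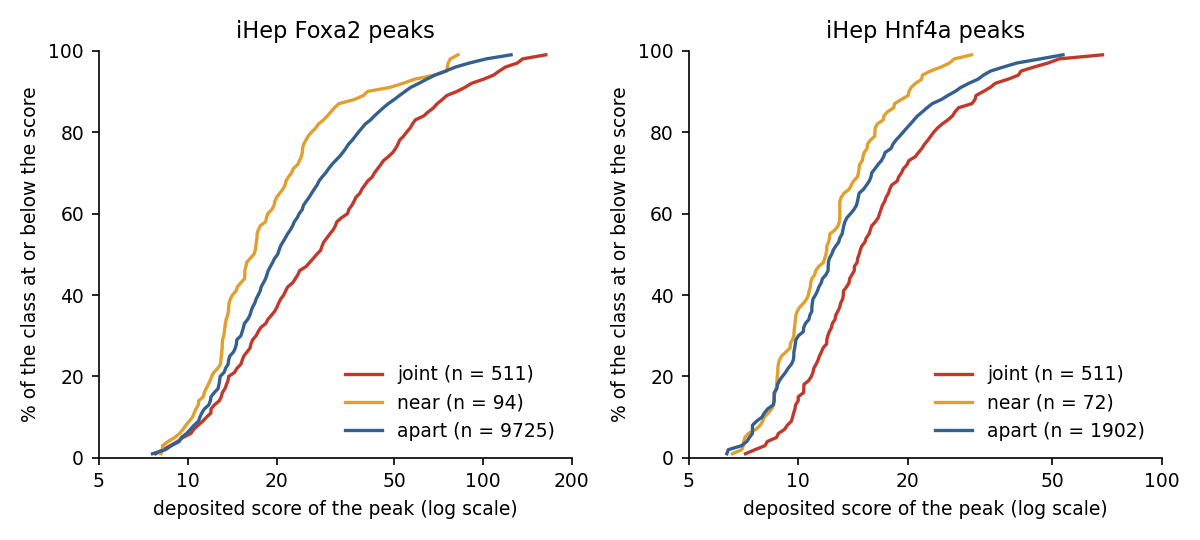
Cumulative share of peaks (y axis, %) at or below a deposited score (x axis, log scale) for joint, near and apart peaks, with iHep Foxa2 peaks on the left and iHep Hnf4a peaks on the right. The joint curve lies to the right of the apart curve over most of both panels, with medians of 27.4 against 20.2 for Foxa2 and 14.7 against 12.4 for Hnf4a.

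The excess was placed differently along the 2 lists. Among Foxa2 peaks, the share that was joint stood at 4.07%, 3.45% and 4.26% in the lower 3 bins when the list was cut by score into 4 bins of 25% each. It reached 8.01% (7.03% to 9.12%) in the highest scoring 25%. At the very top 18 of the 100 highest scoring Foxa2 peaks were joint, which is 18% (11.7% to 26.7%). Joint binding was therefore more frequent at the strongest Foxa2 peaks and close to level below them. Among Hnf4a peaks the lowest scoring 25% stood apart instead, with 10.5% joint (8.28% to 13.1%). The next bins had 19.8% and 24.96%, and the highest scoring 25% had 27.1% (23.7% to 30.7%). Of the 100 highest scoring Hnf4a peaks 35 were joint (35%, 26.4% to 44.7%).

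Joint Foxa2 peaks were also wider, while joint Hnf4a peaks were hardly so. Median widths were 515 bp for joint and 459 bp for apart Foxa2 peaks, and 66.3% of the joint ones (62.1% to 70.3%) exceeded the apart median. For Hnf4a the medians were 371 bp and 358 bp, with 56.4% of joint peaks (52.0% to 60.6%) above the apart median. Among the upper 50% of both lists by score, that last share was 48.8%, and the share of joint Hnf4a peaks above the median apart score was 52.6%.

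Score and width rise together within a list, so each measure was also compared within bins of the other. Across all Foxa2 peaks the rank correlation of score and width was 0.76, and across all Hnf4a peaks 0.59, a description over peaks of 1 library each. Within 25% bins of width, joint Hnf4a peaks still had the higher median score in every bin, with 10.9 against 9.74 for apart peaks in the narrowest and 23.0 against 20.7 in the widest. Joint Foxa2 peaks did so in the wider bins alone. Their medians were 12.7 against 12.8 for apart peaks in the narrowest bin, 16.8 against 17.7 in the next, then 29.6 against 26.3, and 52.2 against 44.7 in the widest. Within 25% bins of score from low to high, the median width of joint Foxa2 peaks was 387, 425, 497.5 and 611 bp, against 367, 414, 484 and 584 bp for apart ones. For Hnf4a these widths were 309, 318, 357 and 452.5 bp for joint peaks and 297, 323, 374 and 489.5 bp for apart ones, so at like score joint Hnf4a peaks were the narrower in all bins but the lowest.

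**Figure D2:**
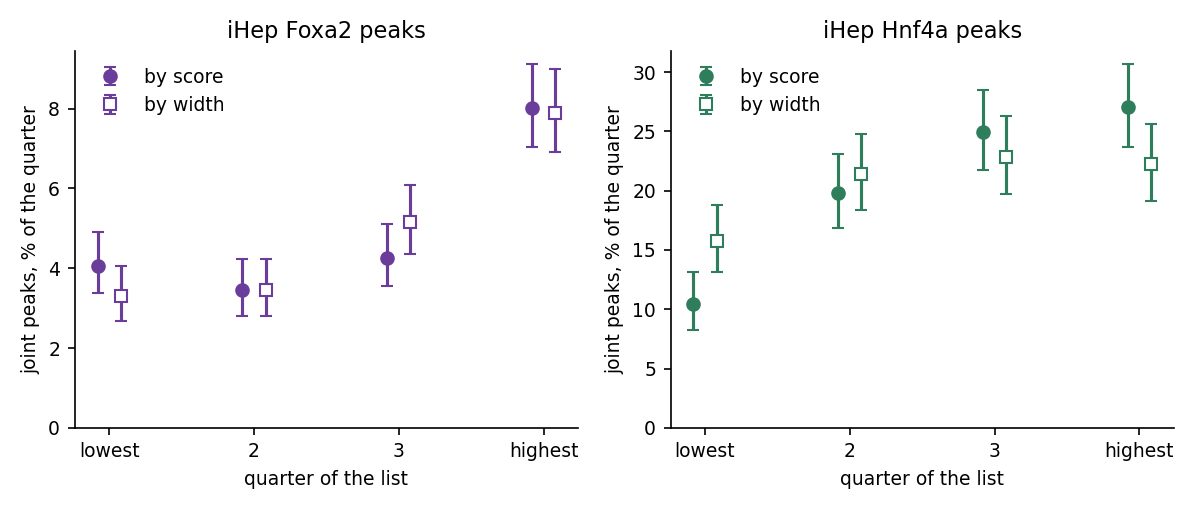
Share of peaks that were joint (y axis, %, from 0) in 25% bins of the list by score (filled circles) or width (open squares), for iHep Foxa2 peaks on the left and iHep Hnf4a peaks on the right, with 95% Wilson intervals. By score, the Foxa2 share reaches 8.01% in the highest bin alone, while the Hnf4a share is 10.5% in the lowest bin and between 19.8% and 27.1% in the others.

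The scores of the 2 factors were only weakly related at joint sites. Across the 511 joint pairs the Spearman rank correlation of the Foxa2 score with the Hnf4a score was 0.10 and that of their widths 0.12. These are descriptions over sites of 1 pair of libraries.

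Where both factors were found, most peak centres lay within 100 bp of each other. Pairs were chosen by overlap of their peaks, which by itself limits how far apart the centres can lie. The Hnf4a centre lay within the Foxa2 peak in 493 of the 511 pairs (96.5%), and the whole Hnf4a peak lay inside the Foxa2 peak in 245 (47.9%, 43.6% to 52.3%). The Foxa2 peak lay inside the Hnf4a peak in 24 pairs (4.70%). The median distance between centres was 68.5 bp (middle 50% from 29.2 to 120 bp). Centres lay within 50 bp in 199 pairs (38.9%), within 100 bp in 350 (68.5%, 64.3% to 72.4%) and within 200 bp in 465 (91.0%). The Hnf4a centre was on the side of the higher coordinate in 249 pairs (48.7%, 44.4% to 53.1%), close to an even split.

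The precision of a centre was gauged from lists of the same or a related factor at the same joint sites. Foxa2 centres lay a median of 27.8 bp from the iHep Foxa1 centre at the 270 joint sites that held one, and 37.2 bp from the 48-hour Foxa2 centre at 136. Hnf4a centres lay a median of 48.2 bp from the Hnf4a centre of the Foxa1 line at 260 sites. Against Hnf4a of the Foxa3 line, however, Hnf4a centres lay a median of 184.5 bp away at 135 sites, with 22.2% within 100 bp. The 68.5 bp between Foxa2 and Hnf4a was thus larger than the first 3 of these medians and smaller than the last.

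A set of 151 joint pairs held both an iHep Foxa1 peak and an Hnf4a peak of the Foxa1 line, and there the geometry could be read in other libraries as well. At these sites the median distance was 54.5 bp from Foxa2 to Hnf4a in the Foxa2 line and 81.5 bp from Foxa1 to Hnf4a in the Foxa1 line. It was 27.5 bp from Foxa2 to Foxa1 and 48.0 bp from Hnf4a to Hnf4a. The signed offsets, Hnf4a minus Foxa, of both lines went together, with a Pearson correlation of 0.70 and a Spearman correlation of 0.69 over the 151 sites. At the 82 sites where the offset in the Foxa2 line exceeded 50 bp, Hnf4a lay on the same side of Foxa in the Foxa1 line in 71 (86.6%, 77.6% to 92.3%). Sites were chosen by overlap between the lines, which ties the centres of both lines together. Part of the correlation and of the same-side share therefore follows from that choice.

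**Figure D3:**
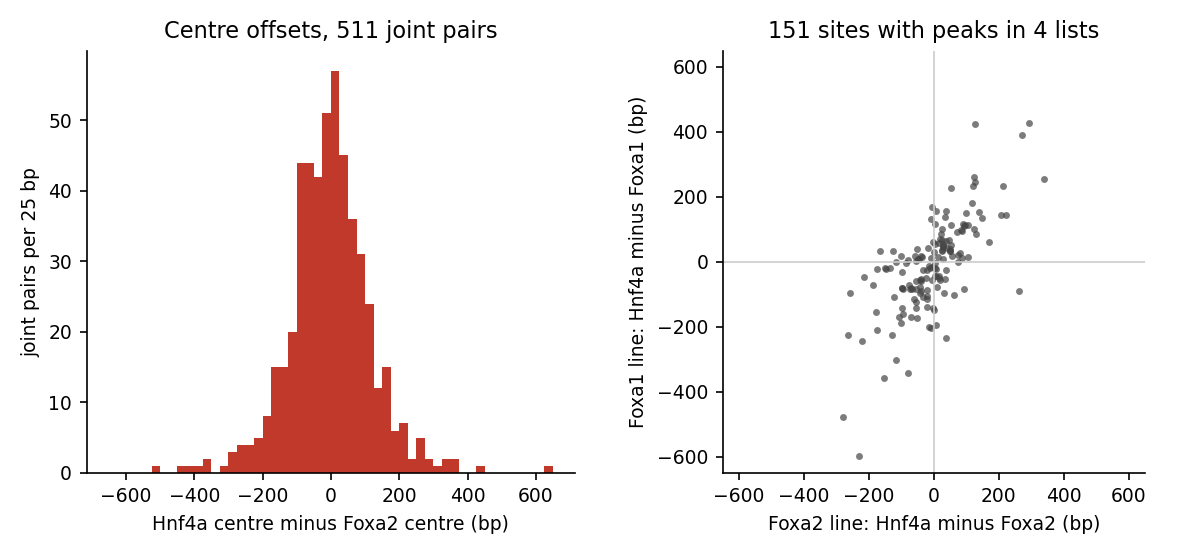
Left, histogram of the Hnf4a centre minus the Foxa2 centre (x axis, bp) for the 511 joint pairs, in bins of 25 bp (y axis, pairs). Right, the same signed offset in the Foxa2 line (x axis) against Hnf4a minus Foxa1 in the Foxa1 line (y axis), 1 point a site. Shown are the 151 sites with peaks in all 4 iHep lists. Most points lie in the quadrants where both offsets have the same sign, in part because sites were chosen by overlap between lines.

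The offset shrank with the Hnf4a score and not with the Foxa2 score. The median distance was 102.5 bp for pairs in the lowest scoring 25% of the Hnf4a list, 75 bp and 67.5 bp in the next bins and 54.8 bp in the highest. Over 25% bins of the Foxa2 list from low to high it was 74.5, 59.0, 82.0 and 65.5 bp. In the other iHep lines the median distance between overlapping Foxa and Hnf4a centres was 79.0 bp over 247 pairs in the Foxa1 line and 123 bp over 981 pairs in the Foxa3 line.

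Ranked by the sum of both score ranks, the leading joint sites were on chromosome 9, with Foxa2 at 102898388 to 102898994 (mm9, score 130) and Hnf4a at 102898495 to 102899032 (score 74.8), and on chromosome 3, with Foxa2 at 42480517 to 42481192 (score 120) and Hnf4a at 42480635 to 42481110 (score 57.2). At the chromosome 9 site the centres were 72.5 bp apart, and at the chromosome 3 site 18.0 bp. The next site, on chromosome 10, had the second highest Foxa2 score of the list (308, at 86307898 to 86308753) with an Hnf4a score of 33.2 at 86307986 to 86308586. All 10 best ranked joint sites held a 48-hour Foxa1 peak and an iHep Foxa1 peak, and 6 held a 48-hour Foxa2 peak. Of the 10, 8 held an iHep Hnf4a peak of the Foxa1 line and 1 a 48-hour Hnf4a peak of the Foxa2 line. As the 10 sites were chosen by score, their counts in part reflect that choice. In the highest scoring bin of the Foxa2 list, 73.9% of joint peaks held 48-hour Foxa1, 87.9% iHep Foxa1 and 42.5% 48-hour Foxa2. Apart peaks there did so in 64.2%, 63.4% and 35.7% of cases. In the highest Hnf4a bin, iHep Hnf4a of the Foxa1 line lay at 79.8% of joint and 72.9% of apart peaks. For 48-hour Hnf4a these shares were 4.76% and 13.1%. Among the 10 sites, one on chromosome 5 had centres 121 bp apart, and the largest offset was on chromosome 18. There a Foxa2 peak of 1335 bp at 44044809 to 44046143 had its Hnf4a partner 302 bp from its centre, at 44045561 to 44045995.

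Strong sites of either factor were also found without the other in iHep cells. The highest scoring Foxa2 peak of all (312, chromosome 4 at 3734049 to 3734915) had no Hnf4a centre within 431839 bp. The next apart Foxa2 peaks lay on chromosome 5 at 68381332 to 68382294 (score 259) and chromosome 12 at 58417322 to 58418583 (score 257). All 3 held 48-hour Foxa1, 48-hour Foxa2 and iHep Foxa1 peaks and no Hnf4a peak of any line or stage. Outside the dense blocks, the highest scoring apart Hnf4a peaks lay on chromosome 2 at 38341285 to 38341852 (score 80.6), chromosome 18 at 90771441 to 90772167 (score 74.9) and chromosome 4 at 141115786 to 141116301 (score 68.9). Each of these held iHep Hnf4a peaks of both other lines and no iHep Foxa1 peak. That on chromosome 18, which reaches the end of the mm9 chromosome, also held 48-hour Foxa2, iHep Foxa3 and, in every line, 48-hour Hnf4a peaks. The chromosome 4 peak also held a 48-hour Hnf4a peak of the Foxa1 line.

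Most joint sites had no other joint site within 50 kb, though the number that an even spread would leave alone was not computed. With sites up to 50 kb apart counted as a run, 454 of the 511 stood alone, 48 formed 24 runs of 2 and 9 formed 3 runs of 3. One of the runs of 3 ended with the best ranked site, on chromosome 9 (102869416 to 102898994). Another covered 98257486 to 98311678 of chromosome 3, and the last 3197920 to 3221115 of chromosome 15. Another Foxa2 peak lay within 10 kb of 27.0% of joint Foxa2 peaks (23.3% to 31.0%) and of 25.2% of apart ones (24.4% to 26.1%). For Hnf4a, peaks beyond the partner itself lay within 10 kb of 11.4% of joint Foxa2 peaks (8.88% to 14.4%) and 3.78% of apart ones (3.42% to 4.18%). Other Foxa2 peaks, again beyond the partner, lay within 50 kb of 64.8% of joint Hnf4a peaks (60.5% to 68.8%) and 42.5% of apart ones (40.3% to 44.7%). Part of both contrasts is fixed by the classes, since an apart peak has no centre of the other factor within 2 kb, while a joint peak may have a second one there.

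Over the chromosomes the joint share of Foxa2 peaks ran from 2.53% on X (6 of 237, 1.17% to 5.41%) and 3.39% on chromosome 1 (2.36% to 4.86%) to 6.81% on chromosome 8 (4.84% to 9.51%). Most of these intervals overlap.

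The near class was partly made of neighbours of joint sites. For 26 of the 94 near Foxa2 peaks the nearest Hnf4a peak was itself joint with another Foxa2 peak, and for 5 of the 72 near Hnf4a peaks the nearest Foxa2 peak was joint with another Hnf4a peak. The median centre distance was 1164 bp for near Foxa2 peaks. The best ranked near pair lay on chromosome 1, with Foxa2 at 92819820 to 92820648 (score 75.7) and Hnf4a at 92818322 to 92818688 (score 26.3), 1131 bp of sequence between them. The others were on chromosome 1 at 51565241 to 51565841 (Foxa2 score 108, gap 167 bp) and on chromosome 6 at 108437211 to 108437823 (Foxa2 score 76.0, gap 180 bp).

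The 48-hour lists, from fibroblasts infected with the same factors, show which joint sites already had a listed peak at that stage. Most had none, and where a single factor was listed it was almost always Foxa2. By overlap with either peak of the pair, 125 of the 511 joint pairs (24.5%, 20.9% to 28.4%) held a 48-hour Foxa2 peak alone, 2 (0.391%) a 48-hour Hnf4a peak alone, 11 (2.15%, 1.21% to 3.81%) both and 373 (73.0%, 69.0% to 76.7%) neither. The 48-hour Hnf4a list is short, with 453 peaks against 6827 for Foxa2. Early absence of a factor, depth and antibody cannot be told apart here.

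Pairs with early Foxa2 alone had a median iHep Foxa2 score of 47.3, against 21.8 for pairs with neither factor, while their Hnf4a scores were alike at 13.6 and 14.9. Their Foxa2 peaks were also wider, at 580 bp against 496 bp, and their centres farther apart, at 81.5 bp against 61.0 bp. The 11 pairs with both factors early had medians of 28.5 for Foxa2 and 19.2 for Hnf4a. The best ranked of them, on chromosome 16 with Foxa2 at 52333597 to 52334268 (score 106) and Hnf4a at 52333610 to 52334169 (score 76.4), also held 48-hour Hnf4a peaks of the Foxa1 and Foxa3 lines and iHep Hnf4a peaks of both. The next were on chromosome 11 at 67328996 to 67329533 (Foxa2 score 45.8) and chromosome 3 at 98736309 to 98736800 (47.3).

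Joint Foxa2 peaks had been present at 48 hours somewhat more often than apart ones. Across the whole Foxa2 list 20.8% of peaks overlapped a 48-hour Foxa2 peak. For joint peaks the share was 26.6% (136 of 511, 23.0% to 30.6%), for near peaks 14.9% (14 of 94, 9.08% to 23.5%) and for apart peaks 20.5% (1998 of 9725, 19.8% to 21.4%). Within bins of score the gap was smaller or absent. In 25% bins of score from low to high, joint peaks held early Foxa2 in 8.57%, 14.6%, 23.6% and 42.5% of cases, and apart peaks in 11.7%, 14.5%, 20.9% and 35.7%. The intervals overlap in every bin, also in the highest, where they run from 36.0% to 49.3% for joint and 33.8% to 37.7% for apart peaks. With Foxa2 cut to 2485 peaks the shares were 42.4% (35.9% to 49.3%) and 36.3% (34.4% to 38.3%).

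Seen from the early stage, Hnf4a was later found at 6.24% of the 48-hour Foxa2 peaks that still held Foxa2 in iHep cells (134 of 2148, 5.29% to 7.34%) and at 1.03% of those that did not (48 of 4679, 0.775% to 1.36%). The first group overlaps iHep Foxa2 peaks by definition, and 4.95% of all iHep Foxa2 peaks were joint. This contrast is therefore largely fixed by the grouping. Among iHep Foxa2 peaks, 6.33% of those present at 48 hours (5.38% to 7.44%) and 4.58% of those absent then (4.15% to 5.06%) were joint. In the highest scoring 25% these shares were 9.39% (7.69% to 11.4%) and 7.23% (6.08% to 8.58%), with overlapping intervals.

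The Foxa1 list of 48 hours held more of the iHep Foxa2 peaks than the Foxa2 list of that time, joint and apart alike, at nearly the same list length of 6781 peaks. It overlapped 34.6% of all iHep Foxa2 peaks, 45.8% of the joint ones (234 of 511, 41.5% to 50.1%) and 34.1% of the apart ones (33.1% to 35.0%). For the 48-hour Foxa2 list these shares were 20.8%, 26.6% and 20.5%. Of the 511 pairs 110 held both 48-hour Foxa1 and 48-hour Foxa2 peaks, 124 Foxa1 without Foxa2, 26 Foxa2 without Foxa1 and 251 (49.1%, 44.8% to 53.4%) neither. Counting either factor, 260 joint sites (50.9%, 46.6% to 55.2%) held a Foxa peak of infected fibroblasts. These counts take overlap with either peak of a pair, and no like count is given for apart peaks. Whether the either-factor share is particular to joint sites therefore cannot be told from it. In 25% bins of score from low to high, 48-hour Foxa1 lay at 19.0%, 16.9%, 41.8% and 73.9% of joint Foxa2 peaks and at 16.2%, 21.4%, 35.6% and 64.2% of apart ones. The intervals overlap in the lower 3 bins, the second of which has the higher share in apart peaks, and are apart in the highest (67.5% to 79.4% for joint, 62.3% to 66.1% for apart peaks).

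Few iHep Hnf4a peaks of any class had been listed for Hnf4a at 48 hours. Across the iHep Hnf4a list 4.47% of peaks overlapped a 48-hour Hnf4a peak of the Foxa2 line. This held for 2.35% of joint peaks (12 of 511, 1.35% to 4.06%), 4.17% of near peaks (3 of 72) and 5.05% of apart peaks (96 of 1902, 4.15% to 6.12%). Without the dense blocks the apart share was 4.49% (85 of 1891, 3.65% to 5.52%), and its interval then overlaps that of joint peaks. In the highest scoring 25% the shares were 4.76% of joint (8 of 168, 2.43% to 9.11%) and 13.1% of apart peaks (58 of 442, 10.3% to 16.6%), where the intervals are apart, dense blocks included. In the lower 3 bins, from low to high, they were 0%, 0.813% and 1.94% of joint peaks and 1.88%, 2.29% and 3.80% of apart peaks, with intervals that overlap in each. Outside the blocks, 15 of the 328 48-hour Hnf4a peaks lay at joint iHep Hnf4a peaks (4.57%, 2.79% to 7.41%) and 104 at other iHep Hnf4a peaks (31.7%, 26.9% to 36.9%). Joint peaks are only 20.6% of the iHep Hnf4a list, so much of this contrast follows from the sizes of the classes.

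The 48-hour Hnf4a lists of the other lines did not give 1 picture. That of the Foxa1 line overlapped 6% of all iHep Hnf4a peaks, 6.65% of joint ones (34 of 511, 4.80% to 9.15%) and 5.89% of apart ones (4.92% to 7.04%). That of the Foxa3 line overlapped 3.1% of all, 0.783% of joint (4 of 511, 0.305% to 1.995%) and 3.84% of apart ones (3.06% to 4.80%), or 3.28% of apart ones (2.57% to 4.18%) without the dense blocks. Early Foxa2 lay at 7.16% of all iHep Hnf4a peaks, at 26.2% of joint ones (134 of 511, 22.6% to 30.2%) and at 2.31% of apart ones (44 of 1902, 1.73% to 3.09%), a contrast that the class itself, built on iHep Foxa2, largely fixes.

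Joint sites were shared with the Foxa1 line more than apart sites of either factor. An iHep Foxa1 peak overlapped 28.3% of all iHep Foxa2 peaks, 52.8% of the joint ones (270 of 511, 48.5% to 57.1%), 31.9% of the near ones (30 of 94) and 26.9% of the apart ones (26.1% to 27.8%). This gap stood in every 25% bin of score, with 13.3%, 28.1%, 44.5% and 87.9% of joint peaks from low to high against 6.88%, 13.2%, 25.6% and 63.4% of apart peaks. The intervals do not overlap in any bin, the closest being the lowest, with 8.11% to 21.1% for joint and 5.94% to 7.96% for apart peaks.

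The Hnf4a peaks behaved alike, to a lesser degree. An iHep Hnf4a peak of the Foxa1 line overlapped 39.1% of all iHep Hnf4a peaks of the Foxa2 line, 50.9% of the joint ones (260 of 511, 46.6% to 55.2%) and 35.9% of the apart ones (33.7% to 38.0%). In 25% bins of score from low to high the joint shares were 29.2%, 30.1%, 45.2% and 79.8% and the apart shares 12.0%, 26.0%, 38.3% and 72.9%. There the intervals are apart in the lowest bin and overlap in the others. Near Hnf4a peaks held Foxa1-line Hnf4a in 40.3% of cases (29 of 72, 29.7% to 51.8%). That interval overlaps those of joint and of apart peaks. Both a Foxa1 and an Hnf4a peak of the Foxa1 line were found at 151 of the 511 pairs (29.5%, 25.8% to 33.6%), and in 147 of them these peaks overlapped each other as well.

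**Figure D4:**
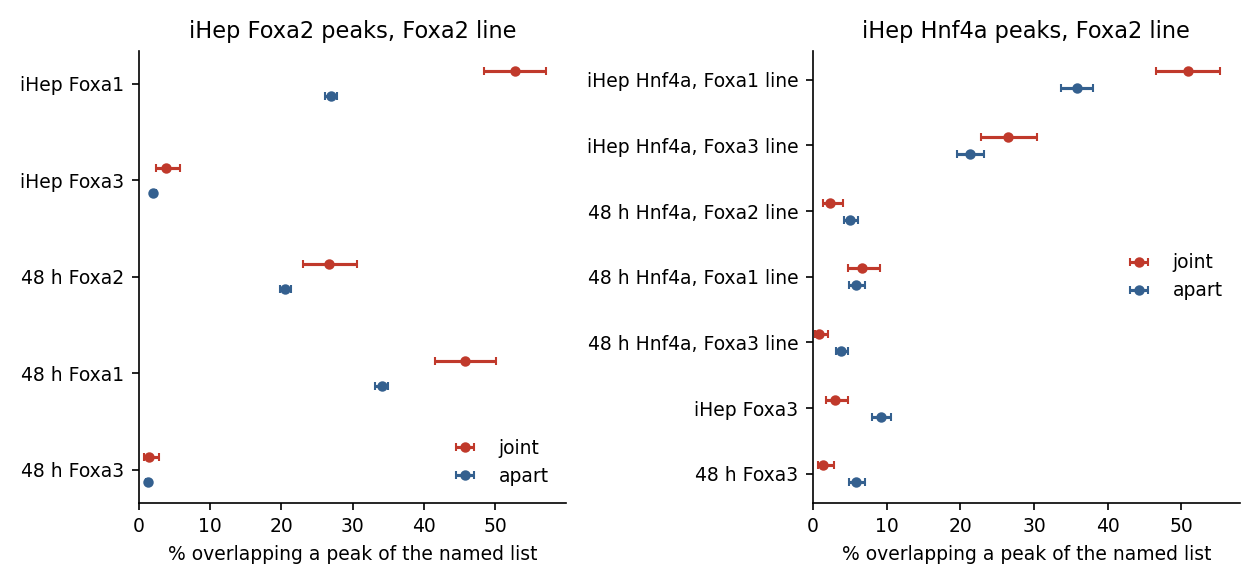
Share of joint (red) and apart (blue) peaks of the Foxa2 line's iHep lists (x axis, %, with 95% Wilson intervals) that overlap a peak of the list named on the y axis, with Foxa2 peaks on the left and Hnf4a peaks on the right. Among the Foxa lists, joint Foxa2 peaks exceed apart ones most at iHep Foxa1 (52.8% against 26.9%), and joint Hnf4a peaks fall below apart ones at iHep Foxa3 (2.94% against 9.25%).

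With Foxa3, joint Hnf4a peaks were held less often than apart ones, while joint Foxa2 peaks in iHep cells were held more often than apart ones, at low shares throughout. An iHep Foxa3 peak overlapped 8.05% of all iHep Hnf4a peaks of the Foxa2 line, 2.94% of the joint ones (15 of 511, 1.79% to 4.79%), 12.5% of the near ones (9 of 72, 6.72% to 22.1%) and 9.25% of the apart ones (176 of 1902, 8.03% to 10.6%). At 48 hours Foxa3 overlapped 4.99% of all, 1.37% of joint (7 of 511, 0.665% to 2.80%) and 5.89% of apart Hnf4a peaks (4.92% to 7.04%). Hnf4a sites without Foxa2 were thus more often Foxa3 sites than joint ones were. Joint Hnf4a peaks held iHep Foxa3 less often than apart ones in all 4 bins of score, with 1.54%, 2.44%, 2.58% and 4.17% from low to high against 8.65%, 9.36%, 8.50% and 10.6%, where the intervals overlap in all bins but the second. Seen from Foxa2, iHep Foxa3 overlapped 2.19% of all peaks, 3.72% of joint (2.39% to 5.73%) and 2.02% of apart ones (1.75% to 2.31%), and 48-hour Foxa3 1.22% of all, 1.37% of joint (0.665% to 2.80%) and 1.19% of apart ones (0.995% to 1.43%).

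How shares of Foxa3-line Hnf4a compared between joint and apart sites depended on the distance allowed. At joint sites Hnf4a of the Foxa3 line mostly had its peak centres on either side of the Foxa2-line Hnf4a centre. It overlapped 22.5% of all iHep Hnf4a peaks of the Foxa2 line, 26.4% of the joint ones (135 of 511, 22.8% to 30.4%) and 21.3% of the apart ones (19.6% to 23.2%), with intervals that overlap. At the 135 joint peaks it had 153 overlapping peaks, 78 on the side of the lower coordinate and 75 on the other, with 7 (4.58%) within 50 bp of the Foxa2-line Hnf4a centre. Their median distance was 204 bp (middle 50% from 127 to 259 bp), and 18 joint peaks were flanked by more than 1 of them. In the Foxa1 line 139 of 261 such overlaps (53.3%) lay within 50 bp. The overlapping peaks at joint sites had a median width of 221 bp in the Foxa3 line and 364 bp in the Foxa1 line. The cause of the offset was not tested. At apart Hnf4a peaks outside the blocks the Foxa3 line's median distance was 170 bp, with 14.1% within 50 bp. The offset was thus not limited to joint sites. With centres within 500 bp counted instead, which was chosen after this was seen, Hnf4a of the Foxa3 line was at 30.9% of joint peaks (27.1% to 35.1%) and 24.2% of apart ones (22.3% to 26.2%), with intervals that do not overlap, and iHep Foxa3 at 4.31% of joint (2.86% to 6.43%) and 10.1% of apart ones (8.87% to 11.6%).

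**Figure D5:**
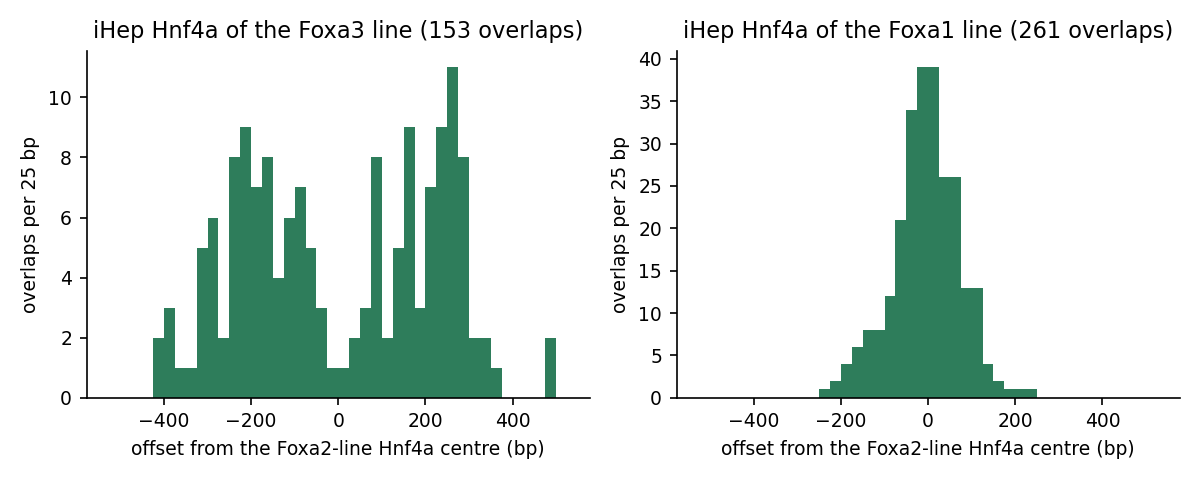
Offset of overlapping iHep Hnf4a peaks of the Foxa3 line (left, 153 overlaps) and the Foxa1 line (right, 261 overlaps) from the Hnf4a centre of the Foxa2 line at joint sites (x axis, bp; y axis, overlaps in bins of 25 bp). The Foxa3 line falls on both sides of an almost empty centre, with 7 overlaps within 50 bp, while the Foxa1 line gathers around 0.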

How the data were processed

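The deposited files are peak lists with 1 score per peak. How the authors computed this score, and with which input if any, was not given in the sources used. Per the submitters' processing notes, the tools were bedtools 2.16.2, MACS2 2.1.0 and BWA 0.6.2 on mm9, with no role for each. No list holds peaks that overlap one another. Positions are mm9 with the first base counted as 1. Of the 13 lists, that of a Foxa3 mutant was not used. Centres are midpoints, and summits were not used here. Samples were grouped by title, with 1 library per group and no test. Files give no depth.

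Peaks were classed by overlap, centre distances were taken to the nearest centre, and bins of 25% were formed by rank within each list. Peaks held by another list were found by 1 bp of overlap. The code classed 2000 of 2000 simulated peaks correctly, and bedtools gave the same 511 joint Foxa2 peaks. The members and lists were chosen with earlier results of these data known. Regions named are the 10 joint sites with the best summed rank by score, 3 near pairs, 3 apart peaks of each list and 3 joint sites with both factors early, each outside dense blocks (places where every 48-hour Hnf4a list has 5 or more peaks in a chain, no gap over 2 kb, plus 10 kb on each side); some are printed. No gene was assigned, because the gene table at hand is on another build. Alternatives are given in the closing section. The scripts ran in Python 3.11.15 with pandas 2.3.3, NumPy 2.4.6 and SciPy 1.17.1, and plots were drawn with matplotlib 3.10.9.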

Additional observations from a re-analysis of the deposited data

How the results depend on the processing

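Of 82 values recomputed under other settings, 3 of which (the Foxa3-line lists with centres within 500 bp) were chosen after seeing the data, 63 stayed within the interval of the reported value, 18 moved out of it and 1 changed direction. With peak centres within 200 bp counted as joint, 18.7% of Hnf4a and 4.50% of Foxa2 peaks were joint, 4.75% of Hnf4a peaks were near and 75.3% of pairs lay within 100 bp, the last by construction. In the upper 50% of each list by score the joint shares were 17.1% of Hnf4a and 4.12% of Foxa2 peaks, 1.21% of Hnf4a peaks were near, 52.6% of joint Hnf4a peaks exceeded the median apart score, 22.5% lay at 48-hour Foxa2 peaks, and the share wider than the median apart Hnf4a peak changed direction, at 48.8%. With iHep lists of equal length 8.25% of either list was joint, 0.563% of Hnf4a peaks were near, 59.5% of joint Foxa2 peaks were wider than the median apart one, and 42.4% of joint Foxa2 and 41.5% of joint Hnf4a peaks lay at 48-hour Foxa2 peaks; the lower joint share of Hnf4a follows from the fewer Foxa2 peaks, and the cause of the other changes was not tested. Near within 1 kb or 5 kb gave 1.17% and 7.16% of Hnf4a peaks. An overlap of 50% of the shorter peak, autosomes only, removal of the dense blocks and merging of peaks within 500 bp moved none of the 11 shares computed under each out of its interval. No paired analysis was possible because each group holds 1 library, and for the same reason no library could be left out. Unknown depth limits every share that rests on a peak being absent.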
